A study of Ciona robusta with 7 samples.

Results

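SYT1/2, SYT7, SYT15 and MYRIP are genes of regulated vesicle release, and their reads were followed cell by cell through the cardiopharyngeal lineage of the tunicate Ciona robusta. Each name belonged to 1 row of the deposited table (KH.C2.101, KH.C2.734, KH.C2.762 and KH.C9.887), so the set held 4 of 15231 genes. The genes had been picked by name for the way they were detected in these same cells, so their own levels and co-detection are given as a description with no test.

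The cells came from stage 38 juveniles reared at 18 °C, were sorted as Mesp+ and are labelled as progeny of the trunk ventral cells (TVC), the heart and pharyngeal muscle founders. The series has 1 group with no other treatment or genotype named, on 7 plates numbered 2 to 8, and polyadenylated RNA was read by SMART-seq2. Labels do not say whether the plates came from separate animals, pools or sorting days, so the spread between plates may be technical. Of 672 barcodes, 96 on each plate, 315 had reads in 1000 or more genes and were kept as cells, 13 to 85 per plate, while the design text gives 386 cells. Kept cells had a median of 148206 reads and 2267 genes, with plate medians from 45649 to 270548 reads. The same barcode sequences were used on every plate, 94 of 96 being kept on at least a pair of plates, and cells of different plates were treated as different cells. Markers of the labelled lineage were present: 1 cluster was heart muscle-like, 1 pharyngeal muscle-like and 1 non-muscle heart mesoderm-like, while 4 clusters, the one that matters most below among them, stayed unnamed.

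Synaptotagmins are vesicle proteins with paired C2 domains, several of which bind calcium and couple a rise in calcium to fusion of the vesicle with the plasma membrane. In vertebrates SYT1 and SYT2 trigger fast transmitter release at synapses, SYT7 has a higher calcium affinity and serves slower release and secretory granule or lysosome fusion, and SYT15 lacks the residues that bind calcium. MYRIP, a vertebrate RAB27 effector, links secretory granules to the motors myosin VIIa and myosin Va. These genes are best known from neurons and secretory cells.

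Reads of SYT1/2 were found in 68 of 315 cells (21.6%, 95% Clopper-Pearson interval 17.2 to 26.5%) on 5 plates. SYT15 was read in 31 cells (9.84%) on 4 plates, SYT7 in 19 cells (6.03%) on 5 plates and MYRIP in 17 cells (5.40%) on 5 plates. Intervals cover counting error only: they treat the 315 cells as independent draws and leave out the spread between plates. The SYT1/2 share ran from 0 of 70 cells on plate 7 to 34.1% on plate 4. Reads were also amplified without molecular identifiers. With 1 plate left out in turn, the SYT15 share ran from 5.56% (without plate 5) to 12.7% (without plate 7), the SYT1/2 share from 17 to 27.8%, the SYT7 share from 4.27 to 6.94% and the MYRIP share from 4.35 to 6.41%.

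Reads of each gene were uneven between cells, with a few cells holding nearly all of them. SYT1/2 had 5 or more reads in 27 cells, with a median of 91 and a maximum of 607, and only 1 or 2 reads in 41 cells. The 27 cells held 99.0% of all SYT1/2 reads. SYT7 had 5 or more reads in 9 cells, from 6 to 345 reads, and those cells held 98.0% of its reads. SYT15 also had 9 such cells, from 5 to 311 reads, holding 97.5% of its reads against 22 cells with 1 or 2. MYRIP had 6, from 6 to 268 reads, holding 97.9% of its reads. One cell each had 3 or 4 reads of SYT7 and of MYRIP, and none did for the other genes.

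Every cell with 1 or 2 reads of a member lay on a plate that also held a cell with 5 or more, 41 of 41 for SYT1/2, 22 of 22 for SYT15, 10 of 10 for MYRIP and 9 of 9 for SYT7. Those plates held 232, 211, 281 and 281 of the kept cells. SYT1/2 cells with 1 or 2 reads did not share a barcode with a high cell of another plate more often (7 of 41, 17.1%) than cells without a read (54 of 247, 21.9%). Free RNA as a source of these 1 or 2 reads was not tested, and a count of 5 reads was used beside a single read from here on. When each cell was thinned to 20000 reads, which 304 cells allowed, SYT1/2 was seen in 27 cells, SYT15 in 15, MYRIP in 13 and SYT7 in 6.

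**Figure D1:**
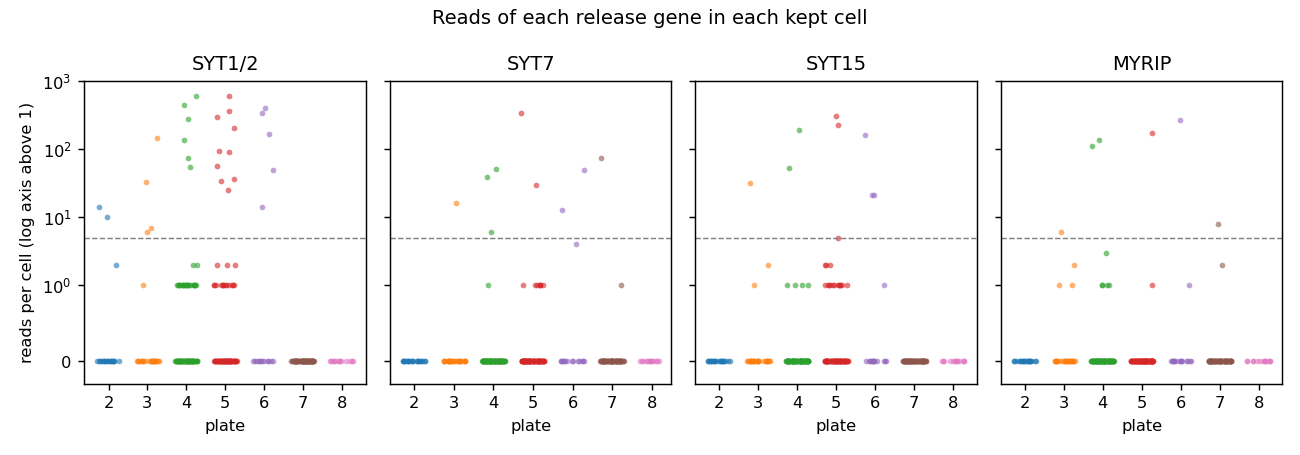
Reads of each gene in each of the 315 kept cells (y axis, logarithmic above 1 read) by plate (x axis); each point is 1 cell and the dashed line marks 5 reads. High cells, up to 607 reads, stand apart from a band at 1 or 2 reads, and plate 8 has no read of any of the 4 genes.

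By plate, SYT1/2 stood at 5.38 CPM (reads per 1000000 reads of that plate's kept cells) on plate 2. It was 52.7 on plate 3, 82.5 on plate 4, 72.6 on plate 5 and 232 on plate 6, and plates 7 and 8 had none. Plate 6 was thus the highest and the plates with no read included the 70 cells of plate 7, where 0 of 70 allows a share of cells with a read of up to 5.13% (95% Clopper-Pearson bound). On plate 8 the same limit was 24.7%, so with only 13 cells absence there could not be established. The mean over 7 plates was 63.6 ± 82.0 CPM (SD).

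SYT7 was 4.37 CPM on plate 3, 5.0 on plate 4, 15.1 on plate 5, 15.7 on plate 6 and 3.6 on plate 7, with none on plates 2 and 8 (6.26 ± 6.57, SD, n = 7). Plate 7 thus held SYT7 without SYT1/2, in 1 cell with 73 reads and 1 with a single read. SYT15 was 9.56 CPM on plate 3, 12.9 on plate 4, 22.1 on plate 5 and 48.6 on plate 6, and was not read on plates 2, 7 and 8 (13.3 ± 17.7, SD, n = 7). MYRIP was 2.73 CPM on plate 3, 13 on plate 4, 6.85 on plate 5, 64.1 on plate 6 and 0.486 on plate 7 (12.5 ± 23.3, SD, n = 7). All 4 genes were highest on plate 6, whose 17 kept cells were few, and for each gene the spread between plates was larger than its mean. The kept cells held 7023 of the 7057 reads of the 4 genes in all barcodes. They also held most reads of all genes, so this share is no trait of the 4 genes. On plate 7, for example, the kept cells had 20583268 reads and the barcodes with 500 or more genes 21084826.

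The release genes met in the same cells. Of 315 cells, 225 had no read of any member, 60 had 1 member, 18 had 2, 9 had 3 and 3 had all 4. The 30 cells with 2 or more (9.52%, 95% interval 6.52 to 13.3%) were 4 on plate 3, 8 on plate 4, 14 on plate 5 and 4 on plate 6. At 5 or more reads, 31 cells had at least 1 member and 12 had at least 2, so the smaller counts made up part of the overlap: 11 of the 30 cells had no member at 5 reads. The 30 cells were also deeper, with a median of 395156 reads and 4924 genes, against 134808 and 2192 in the other cells. Thinned to 20000 reads, 2 or more members were seen in 1 cell on plate 3, 3 on plate 4, 3 on plate 5 and 2 on plate 6. The part of depth in the overlap was not tested.

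At 5 reads, SYT1/2 was the common partner. It was high in 8 of the 9 SYT15 cells, 6 of the 9 SYT7 cells and 5 of the 6 MYRIP cells, whereas 16 of its own 27 cells had no other member at that level. Multiplying the single shares within each plate gave 1.54 shared cells for SYT1/2 with SYT15, 1.19 with SYT7 and 0.702 with MYRIP, values set beside the counts as a description. The products make no allowance for differences in depth between cells. Among the other pairs, SYT7 and SYT15 shared 5 cells (product 0.533), SYT15 and MYRIP 4 (0.296) and SYT7 and MYRIP 3 (0.263). The combinations at 5 reads were SYT1/2 alone in 16 cells, SYT1/2 with SYT15 in 3, all 4 genes in 3, SYT1/2 with SYT7 in 2, SYT7 alone in 2 and 5 others in 1 cell each.

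The 3 cells with all 4 genes came from 3 plates. The one on plate 3 had 146 reads of SYT1/2, 16 of SYT7, 32 of SYT15 and 6 of MYRIP among 86657 reads. The cell on plate 5 had 297, 345, 225 and 172 reads, in the same order, among 2206484 reads, a depth at which a doublet was not tested for. The cell on plate 6 had 165, 13, 161 and 268 reads among 378575. Scaled to depth, MYRIP was 69.2 CPM in the first, 78 in the second and 708 in the third, so 1 gene's level differed widely among these cells. Over all 315 cells, Pearson's r of log2(CPM + 1) between members ran from 0.29 (SYT7 with MYRIP) to 0.52 (SYT15 with MYRIP). All such values share the depth of each cell and a mass of cells at 0.

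**Figure D2:**
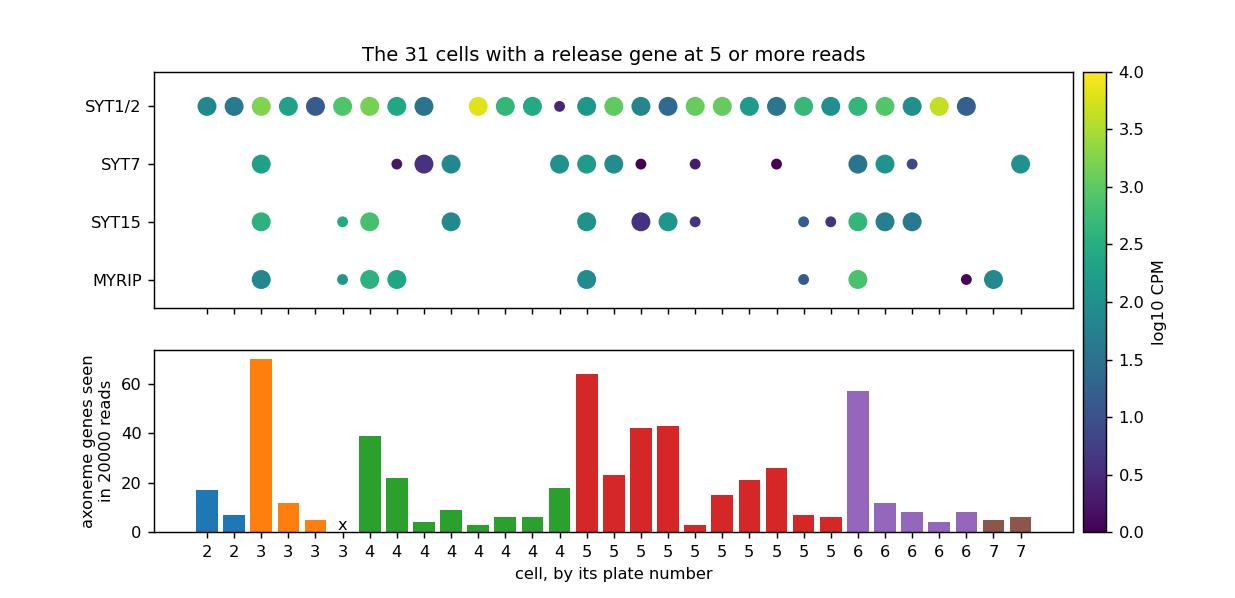
The 31 cells with a member at 5 or more reads, 1 column per cell with its plate number on the x axis; upper dots show each gene with a read (large dots, 5 or more reads; small dots, fewer; colour, log10 CPM) and lower bars the number of axoneme genes seen when the cell was thinned to 20000 reads (x, a cell too shallow to thin). The cells with all 4 genes have 70, 64 and 57 axoneme genes, while the brightest SYT1/2 cells, on plates 4 and 6, have 3 and 4.

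Most high cells fell in 1 cell cluster. Cells were clustered without the 4 genes, and cluster 3, with 39 cells, took 22 of the 27 SYT1/2 cells, 8 of the 9 SYT15 cells, 6 of the 9 SYT7 cells and 5 of the 6 MYRIP cells. SYT1/2 reached 517 ± 232 CPM there (SD, n = 4 plates), and the next were cluster 7 with 7.54 ± 7.18 (n = 4), cluster 4 with 4.78 ± 7.40 (n = 4) and cluster 2 with 4.15 ± 8.56 (n = 6). Below cluster 3 these neighbours did not differ beyond their spread. SYT15 stood at 95.9 ± 33.7 CPM in cluster 3 against at most 3.43 elsewhere, SYT7 at 37.3 ± 14.4 against at most 2.59, and MYRIP at 81.3 ± 74.7 against at most 1.59.

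The genes that led cluster 3 included CG9338, a glutathione S-transferase row (GST, KH.S573.7), FABP1/6 and FABP2 (fatty acid binding proteins) and HPCAL4 (a neuronal calcium sensor family member). Its summed axoneme list stood at 5163 CPM, against 319 to 1504 in the other clusters. Its sarcomere list stood at 3630 CPM, against 93241 in the heart muscle-like cluster and 2321 in cluster 1, which was lower still. These are the cluster's own genes and no test. Its cells were also deeper, with a median of 214260 reads, a difference whose part in detection was not tested. With the release and cilia genes both kept out of the clustering, a cluster of 50 cells held all 39, and SYT1/2 stood at 456 ± 211 CPM in it. Still, 14 of the 39 cells had no SYT1/2 read, and high SYT1/2 cells lay outside it: 2 in cluster 4, 2 in cluster 7 and 1 in cluster 2.

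**Figure D3:**
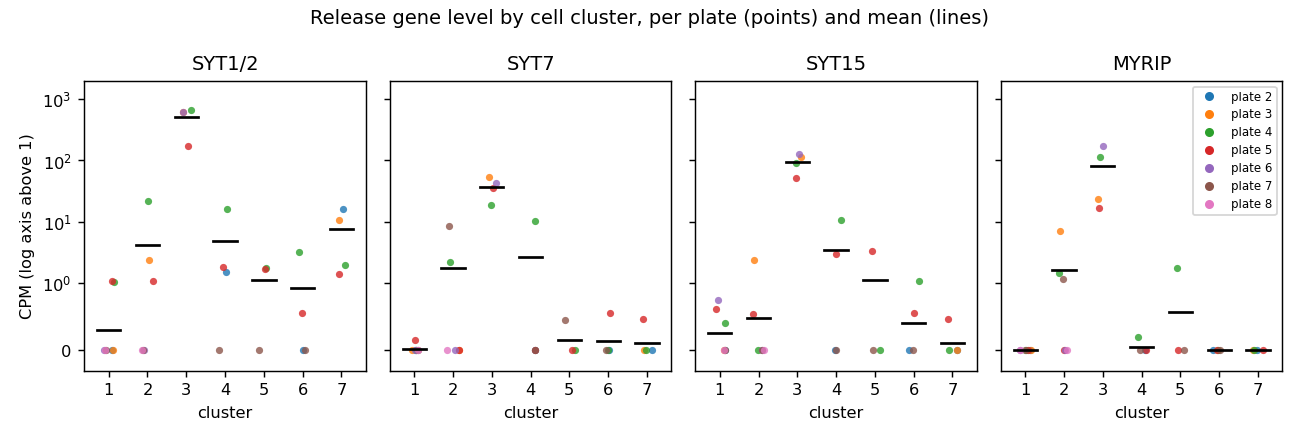
Level of each gene (y axis, CPM, logarithmic above 1) in 7 cell clusters (x axis); points are plates with at least 3 cells of the cluster and black lines the mean over those plates. Cluster 3 stands highest for every gene, at 517 CPM for SYT1/2, and the other clusters lie at or below 7.54.

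Among the 5 genes nearest to each member, only CCDC81 was shared, by SYT15 and MYRIP. The 5 genes whose log2(CPM + 1) correlated best with SYT1/2 over 315 cells were PCSK2 (r = 0.72), a G protein gamma subunit row (GNG10/12/2/3/4/5/7/8, 0.59), KH.S1061.3 (0.57), the transglutaminase TGM1/4 (0.56) and DKK3, a secreted Dickkopf family member (0.56). PCSK2, the prohormone convertase that cuts neuropeptide and hormone precursors in secretory granules, had 5 or more reads in 16 cells. All 16 also had 5 or more SYT1/2 reads, which was 16 of the 27 SYT1/2 cells.

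By plate, PCSK2 was 1.24 CPM on plate 2, 0 on plate 3, 25.2 on plate 4, 19.5 on plate 5, 126 on plate 6, 0 on plate 7 and 0.189 on plate 8. Plate 3 therefore had SYT1/2 in 4 cells at 5 or more reads with no PCSK2 read. PCSK2 met SYT7 in 4 of 9 cells, SYT15 in 5 of 9 and MYRIP in 4 of 6. CPE, the carboxypeptidase that trims PCSK products, had 5 or more reads in 15 cells, 10 of them high for SYT1/2 and the other 5 without a high release gene.

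Axoneme list genes made up 2 of the 5 nearest to SYT7, 2 of the 5 nearest to SYT15 and 1 of the 5 nearest to MYRIP, and 0 of the 5 nearest to SYT1/2. The list held 113 of the 15231 genes, and its share of the 10415 genes compared was not counted. It was matched by name, so cilia genes under other names are not in these counts. The genes nearest to SYT7 were TTC29 (r = 0.52), the row KH.C3.63 (0.52), SPAG16 (0.50), DNAL1 (0.49) and C9ORF171 (0.48). In vertebrates SPAG16 is a protein of the axoneme's central pair and DNAL1 a dynein light chain. SYT15 was nearest to IQUB (0.62), a radial spoke protein in mammals, C4ORF47 (0.62), CCDC81 (0.60), WDR65 (0.59) and KH.C9.829 (0.58). MYRIP was nearest to KH.C10.192 (0.67), CCDC81 (0.60), KH.L44.17 (0.60), the radial spoke gene RSPH10B/2 (0.59) and RP11-305M3.3 (0.58). Within plates, these values moved by at most a few hundredths, for example to 0.71 for SYT1/2 with PCSK2 and to 0.57 for MYRIP with RP11-305M3.3. The unnamed rows carry no role in the files used here.

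Motile cilia are built on an axoneme of microtubule doublets with dynein arms, radial spokes and tektins. Tektins had 5 or more reads in 42 cells and a release gene in 31, and 17 cells had both, 40.5% of the tektin cells and 54.8% of the release cells. By member, tektins were high in 8 of the 9 SYT15 cells, 5 of the 6 MYRIP cells, 6 of the 9 SYT7 cells and 16 of the 27 SYT1/2 cells. Of the 42 tektin cells, 25 had no release gene at that level. The overlap of release and cilia genes was known when the genes were picked, and so is no independent support.

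After thinning to 20000 reads, cells with a release gene at 5 or more reads had a median of 10.5 axoneme genes of 113 listed (3 to 70, n = 30). The 59 cells with 1 to 4 reads only had a median of 4 (0 to 14), and cells with none had 3 (0 to 38, n = 215). At least 10 axoneme genes were seen in 15 of the 30 high cells and in 7 of the 215 cells with no release gene. The depth of these cells moved with the class, since release cells at 5 reads had a median of 378575 reads and cells without a read 134808. At equal depth they also showed more genes in all, 2411 against 1408.

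Among cells high for SYT1/2, axoneme genes were read mainly where a second member was high too. The 16 cells with SYT1/2 alone had a median of 7 axoneme genes (3 to 26, 15 cells deep enough), and 6 had tektins at 5 or more reads. The cell left out of this median, on plate 3 with 7500 reads, had 53 axoneme genes and 23 tektin reads without thinning. It also had 2 SYT15 reads and 1 MYRIP read, so at its low depth it may not belong with SYT1/2 alone. The 11 cells with SYT1/2 and another member had a median of 39 (4 to 70), and 10 of them had tektins. PCSK2 was high in 9 of the 16 and in 7 of the 11. The most extreme SYT1/2 cells were of the first kind: 594 reads (6405 CPM) on plate 4 and 401 reads (4247 CPM) on plate 6, each with PCSK2 but no tektin read. These 2 cells do not stand for all cells high for PCSK2. Of those 16 cells, 11 also had tektins at 5 or more reads, on 4 plates. The 4 cells with another member but not SYT1/2 had a median of 7.5 axoneme genes and no PCSK2 at 5 reads. These groups were defined after seeing the values and were not tested, and their depths differed, with median reads of 249596, 507373 and 527769.

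**Figure D4:**
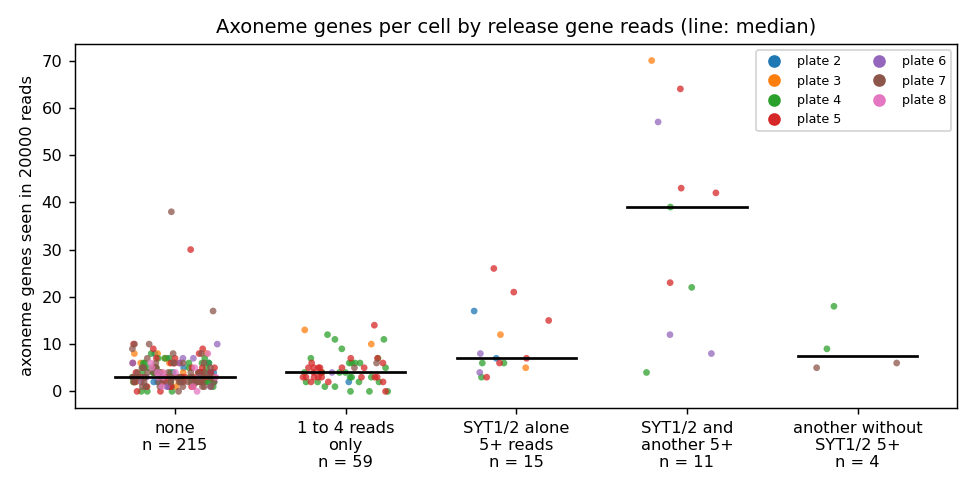
Number of axoneme genes seen when a cell is thinned to 20000 reads (y axis) for cells grouped by release gene reads (x axis, with the number of cells); points are cells coloured by plate and lines are medians. The median is 39 where SYT1/2 and another member are high, 7 where SYT1/2 alone is high and 3 where no member was read.

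To compare the rest of the transcriptome, reads were summed per plate over cells with 2 or more members and over all other cells, on plates 3 to 6, where both sides had at least 3 cells. With edgeR's quasi-likelihood test and the plate as a block, 0 of 8507 genes were higher and 0 lower at an adjusted p under 0.05 (0.0% in each direction), the smallest adjusted p being 0.0718. At an unadjusted p under 0.05, 325 genes (3.82%) were higher and 229 (2.69%) lower, and DESeq2's Wald test called 293 (3.44%) higher and 103 (1.21%) lower. The fewer-than-2 side kept cells high for SYT1/2 alone, and its SYT1/2 level was 12.3 CPM on plate 3, 63.6 on plate 4, 22.6 on plate 5 and 200 on plate 6. The 2-or-more side stood at 386, 151, 132 and 261 CPM on the same plates.

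In that comparison the axoneme list still leaned one way. Of 113 genes, 77 were tested; none passed, 48 were higher and none lower at an unadjusted p under 0.05, and 50 were higher in all 4 plates against 9.25% of all genes. The median log2 fold change of the list was 3.43, against -0.12 over all genes tested. Of 30 sarcomere genes, 18 were lower in all 4 plates, against 7.81% of all genes. ENKUR, a sperm flagellum and cilia adaptor in vertebrates, had a log2 fold change of 4.44 ± 0.74 (SE, adjusted p = 0.0910, edgeR). Genes of intraflagellar transport, which carries parts into the cilium, had a median of 0.87 over 59 tested, with 5 higher at an unadjusted p under 0.05.

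Because many of the 30 cells rested on single reads, the comparison was repeated with cells that had any member at 5 or more reads, a class chosen after seeing the data. Of 8406 genes, 49 (0.583%) rose and 13 (0.155%) fell over plates 3 to 6 (edgeR, adjusted p under 0.05), the 4 release genes left out. At an unadjusted p under 0.05, 4.77% of genes were higher and 3.59% lower. These cells lie mostly in cluster 3, so the result describes that cell population as much as the members. The counts rest on single plates: without plate 5 they were 14 and 1, without plate 3 they were 24 and 4, without plate 4 they were 36 and 8, and without plate 6 they were 53 and 33. Of the 62 genes called, 11 were called again without plate 5, 14 without plate 3, 32 without plate 4 and 48 without plate 6. With barcodes over 1000000 reads left out the counts were 24 and 8, and with cells of 3000 or more genes, which left 2 plates, 83 and 57.

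The largest rise with counts on both sides was that of CG9338 (KH.C3.522). It stood at 1235 CPM in release cells and 3.12 in other cells on plate 3, 638 and 3.57 on plate 4, 538 and 3.20 on plate 5, and 1533 and 1.57 on plate 6. The groups were wide apart on every plate, with a log2 fold change of 8.10 ± 0.53 (SE, adjusted p = 0.00217, edgeR). The GST row KH.S573.7 rose by 7.82 ± 0.74 on the log2 scale, the row F14B6.6 by 7.69 ± 0.82, the claudin row CLDN1/18/2/5/8 by 7.59 ± 0.91, LYG2, a lysozyme, by 7.41 ± 0.72, and TNR, a tenascin of the extracellular matrix, by 7.05 ± 1.03. The other cells held only 7 reads of F14B6.6, 9 of the claudin row, 15 of LYG2 and 5 of TNR. Each of these was at 0 CPM there on at least 1 plate, so the size of these folds is uncertain. ARHGAP6 had 220 reads in release cells and 1 in the others, and C7ORF57 245 and 2, counts too low on 1 side for a fold. CG9338, LYG2 and the GST row passed whichever single plate was left out, F14B6.6 failed without plate 5, the claudin row failed without plate 3 or plate 5, and TNR and ARHGAP6 failed without any 1 of the 4. FOXA1/2/3, an endoderm and axial transcription factor, rose by 5.64 ± 0.86 and failed without plate 4, 5 or 6. DKK3 and the G protein gamma row rose by 6.88 ± 0.77 and 6.94 ± 1.16, but they had been named for their likeness to SYT1/2 in these same cells. The gamma row passed only without plate 5, and DKK3 only without plate 3 or plate 6. With cells of 2 or more members as the class, neither passed: DKK3 had 0.20 ± 0.49 (adjusted p = 0.972, edgeR), and the gamma row turned to -0.41 ± 0.62 and was lower on 3 of 4 plates. In that comparison TNR had 1.84 ± 3.26 and LYG2 2.34 ± 2.31 (SE), each higher on 2 of 4 plates.

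Among axoneme genes, 8 of the 76 tested rose and none fell, against 0.583% of all genes. DNALI1, an inner arm dynein light chain, was 184 CPM in release cells and 0.694 in others on plate 3, 42.6 and 2.29 on plate 4, 221 and 5.35 on plate 5, and 70.5 and 4.18 on plate 6 (log2 fold change 5.10 ± 0.73, SE, adjusted p = 0.0269, edgeR). The radial spoke head gene RSPH4A rose by 5.07 ± 0.78 and RSPH1 by 3.26 ± 0.55. The others were EFHC2 (6.85 ± 1.10), MORN2 (7.07 ± 1.19), the outer arm dynein heavy chain DNAH17 (3.63 ± 0.58), IQCA/1 (3.81 ± 0.62) and ROPN1L (2.53 ± 0.43). The list's median was 3.42, against -0.08 for all genes, and 52 of 76 were higher in all 4 plates (10.1% of all genes). The calls were lost in part by plate: 0 axoneme genes passed without plate 3 or without plate 5, 6 without plate 4 and 7 without plate 6, and 0 passed with barcodes over 1000000 reads left out, while the median stayed between 2.79 and 3.97.

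No gene of the wider release machinery passed this test. On simulated counts for the comparison by 2 or more members, edgeR recovered 18 of 100 changes of 4-fold. Changes of that size could thus be missed here. None of the 16 tested genes among other synaptotagmins and C2 domain proteins passed (median log2 fold change 0.75, 2 higher at an unadjusted p under 0.05). CADPS/2, a priming factor of dense-core granules, had 2.00 ± 0.78 (SE, adjusted p = 0.484, edgeR), and the cytosolic phospholipase PLA2G4A 3.39 ± 0.92 (adjusted p = 0.187). None of 42 SNARE and fusion genes passed, with a median of -0.11, and none of 15 synaptic vesicle genes, with a median of 0.39.

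Of the granule transport partners, 0 of 21 tested passed, with 3 higher at an unadjusted p under 0.05. RAB3C, a vesicle GTPase of regulated release, was 85.0 CPM in release cells and 31.6 in others on plate 3, 221 and 32 on plate 4, 172 and 43.1 on plate 5, and 474 and 47.1 on plate 6. It was thus higher on all 4 plates and missed the threshold at an adjusted p of 0.0512 (edgeR, log2 fold change 2.31 ± 0.41). RAB27B (KH.C4.741), the kind of GTPase that recruits MYRIP, was 6.44 and 10.4 CPM on plate 3, 100.5 and 7.47 on plate 4, 50.0 and 19.6 on plate 5, and 171 and 5.75 on plate 6. It was higher on 3 of 4 plates (2.35 ± 0.98, adjusted p = 0.566).

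Of the summed markers of other cell types, the epidermis list was higher in release cells on all 4 plates. The neural, endoderm and blood lists were each higher on 3 of 4. Their part in these results was not tested. By cluster, the epidermis list was not particular to cluster 3, where it stood at 1661 CPM. It was 2334 CPM in cluster 5, the heart muscle-like one, 1795 in cluster 2 and 107 to 215 in the other clusters. Of 20 neural and neurosecretory genes tested, none passed, and 3 were higher and 4 lower at an unadjusted p under 0.05. SOX1/2/3, of a transcription factor family used in neural development, had a log2 fold change of 5.74 ± 1.28 (adjusted p = 0.109, edgeR) and CPE 5.17 ± 1.39 (adjusted p = 0.185). On the low side, CACNA1C had -4.17 ± 1.08 (adjusted p = 0.161, edgeR) and ACHE -1.46 ± 0.47 (adjusted p = 0.312). Both were lower on 4 of 4 plates. CACNA1C was also among the pharyngeal muscle markers used here, so it is not a neural marker alone. It stood at 395 CPM in cluster 6, where the sarcomere list was 203166 CPM, and at 10.2 CPM in the rest. Over the 20 neural genes, changes centred on 0.012, with 2 genes higher and 5 lower in every plate. PCSK2 did not pass the filter on low counts in this comparison. In the comparison by 2 or more members, where cells high for SYT1/2 alone lay on the other side, it had 1.33 ± 0.61 (adjusted p = 0.797) and was higher on 3 of 4 plates. The summed neural list was 357 to 1484 CPM in release cells and 338 to 601 in others, with 0 of 32 genes at 0 in release cells. The epidermis list was 872 to 2951 CPM against 358 to 611, with 4 of 30 genes at 0, the endoderm list 39.9 to 820 against 41.3 to 100.4, with 8 of 25 at 0, and the blood list 96.6 to 441 against 123 to 294, with 4 of 14 at 0.

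Muscle genes were on the low side. Of 29 sarcomere genes tested, 2 fell and 20 were lower at an unadjusted p under 0.05, with a list median of -2.70. In all 4 plates 21 of them were lower, against 7.92% of all genes. MYH1/2, a muscle myosin heavy chain, was 1.29 CPM in release cells and 254 in others on plate 3, 7.91 and 116 on plate 4, 6.13 and 225 on plate 5, and 0.438 and 5.23 on plate 6 (log2 fold change -5.06 ± 0.68, adjusted p = 0.0227, edgeR). Troponin C, TNNC1, fell by 2.68 ± 0.45, and the other genes named by the same rule were HSPB1, a small heat shock protein (-5.26 ± 0.66), BVES (-4.09 ± 0.61), PALLD (-3.22 ± 0.46), ARG-1 (-2.36 ± 0.35) and COL13A1 (-1.92 ± 0.32). All 7 failed without plate 5, and all but HSPB1 failed without plate 3. The pharyngeal muscle regulator EBF1/2/3/4 had -2.06 ± 0.41 (adjusted p = 0.0728) and passed in neither comparison. The summed sarcomere list was 3275 to 14162 CPM in release cells and 25289 to 41720 in others, so muscle transcripts were lower but present in the sums.

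**Figure D5:**
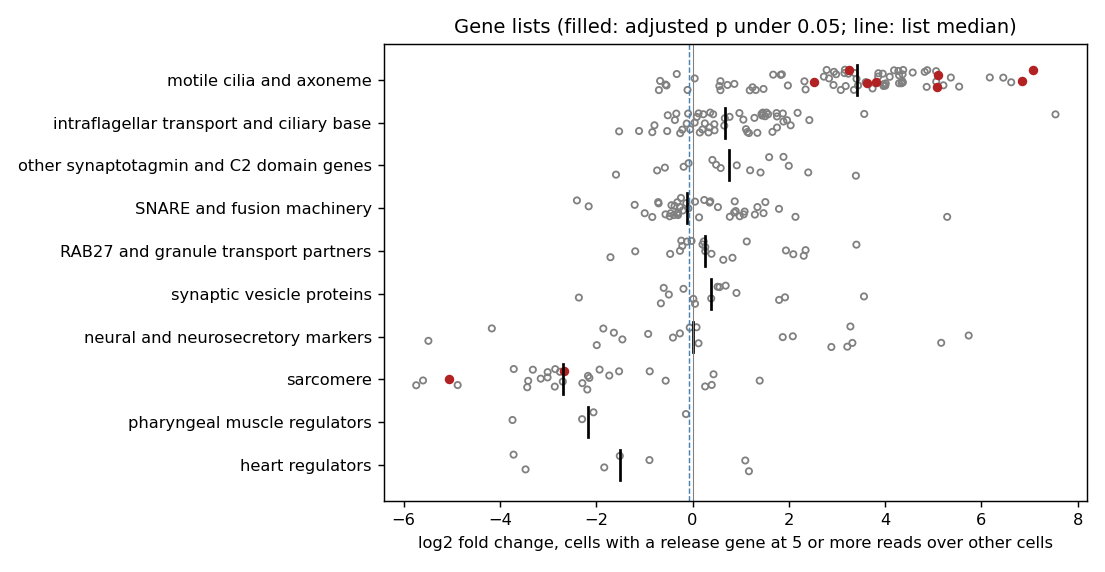
Log2 fold change of each tested gene (x axis) between cells with a release gene at 5 or more reads and other cells, for 10 gene lists (y axis); filled points have an adjusted p under 0.05, black lines are list medians and the dashed line is the median of all genes, -0.08. Axoneme genes centre on 3.42 with 8 filled points, and sarcomere genes on -2.70 with 2.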

How the data were processed

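The authors deposited raw read counts per gene for each barcode of 7 plates, made with featureCounts per the submitters' processing notes and from TopHat alignments per the file headers. Versions, build and strand setting: not given in the sources used here. The number of value columns without a plate was 0. KH gene rows matched no entry of the RefSeq table used, so no coordinates or sequences are given. Barcodes with 1000 or more genes were kept, and no doublet caller was run. Clusters came from scanpy 1.11.5 (2000 variable genes without the members, 20 components, 15 neighbours, resolution 0.8). Counts were summed per plate and class, and compared with edgeR 4.0.16 (TMM, filterByExpr, plate as a block, Benjamini-Hochberg over all genes), checked on simulated data, with DESeq2 1.42.0 as an alternative. In counts simulated for the comparison by 2 or more members, edgeR recovered 18 of 100 changes of 4-fold and 94 of 100 of 32-fold, with 3 false calls. All adjusted p values are from edgeR. Residual degrees of freedom were 3, with 5.61 prior. Named genes are the 4 members, the 10 largest changes each way among named genes that passed and moved one way in every plate, up to 4 per list by adjusted p, and the 5 most correlated with each member among genes read in 10 or more cells. In the added comparison all passing axoneme genes are named. Lists were matched by name and trimmed of accidental matches, and the notochord list matched no row. Members and lists were chosen with earlier results of these data known. One gene that the rule for named genes selects is not reported here.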

Additional observations from a re-analysis of the deposited data

Results flagged for a closer look

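Among 14 sets of 7 plate values checked for a plate far from the others, 4 had one, and chance marks about 1 set in 20. All 4 were on plate 6: the SYT1/2 level of 232 CPM, the MYRIP level of 64.1 CPM, the share of cells with 5 or more SYT7 reads (11.8%) and the share with 5 or more SYT15 reads (17.6%). Plate 6 had 17 kept cells, so the 2 shares stand for 2 and 3 cells. Outside the kept cells, 1 barcode of plate 4 with fewer than 1000 genes held 28 SYT1/2 reads.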

How the results depend on the processing

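Counts of genes higher and lower with 2 or more members, both 0 as reported, depended on the setting. They were 293 and 103 with DESeq2, 132 and 45 with no filter on low counts, 5 and 2 with no replicate block (plate not in the model), 32 and 2 against cells with no member, 63 and 100 with cells thinned to 20000 reads (2 plates, spread pooled over all genes), 18 and 13 on plates with at least 5 cells a side, 49 and 13 with a member at 5 or more reads, and 1 higher with at least 3000 genes. Leaving out 1 plate gave 0 to 4 higher and 0 lower, with 4 without plate 5 and 2 without plate 3. Cilia genes called higher were 48 with DESeq2, 25 with no filter, 2 against cells with no member, 5 after thinning and 8 at 5 or more reads, against 0 as reported. The cause was not tested, apart from the fewer plates. The axoneme median was at least 1.77 in every setting tried. Some genes that had not passed changed sign: CPNE1/3 to -0.19 and SEC22 to -0.31 with 3 or more members, RPH3A to -0.14 and SEC22 to -0.35 after thinning, SLC17A5 to 0.97 with 1 or more members against none, RAB11B to 1.13 and SLC17A5 to 0.39 at 5 or more reads, and RAB11FIP3/4 to -0.066 and TPM1/2 (KH.C3.661) to 2.09 with at least 3000 genes. The share of cells with 2 or more members ran from 2.96% after thinning to 26.3% with at least 3000 genes, where SYT1/2 was read in 46.5% and SYT7 in 15.2% of cells, a setting added after seeing the data.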
